A study of Homo sapiens with 82 samples.

Results

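GW3965 is a synthetic agonist of the liver X receptors (LXRs), and its early effect on RNA was read in HT29 cells, an established line of human colorectal adenocarcinoma. The libraries described are the 8 that the labels give as 24 h of treatment with 10 μM GW3965 (4 replicates) or with the solvent DMSO alone (4 replicates), out of 82 samples in all and 32 libraries of sequenced RNA. The other RNA libraries used beside them came from the same line treated with 10 μM of the LXR agonist T0901317 or of rosiglitazone, an agonist of the receptor PPARγ, at 24 h, and with DMSO or GW3965 at 48 h. All cells, the DMSO controls included, had been kept in medium without phenol red and with charcoal-treated serum, so that every group started from medium depleted of hormones and lipophilic ligands. A single line was used and carries no engineered allele, and the labels do not say whether the replicates were separate cultures, so the p-values measure the spread between these samples.

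LXRα (NR1H3) and LXRβ (NR1H2) are nuclear receptors that bind DNA as partners of the retinoid X receptors and are switched on by oxidised sterols. They are known for raising the genes that move cholesterol out of cells and for raising fatty acid synthesis through SREBF1, which encodes the lipogenic factor SREBP-1. In intestinal epithelium they are known for sterol efflux at the cell surface.

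The 8 libraries held 30834003 to 51332656 counts each, and 21781 of 51838 listed genes were tested. All 12 colorectal epithelial markers had a mean of at least 1 CPM (counts scaled to a common library size), summing to 19600 to 21600 CPM in every library. These marker means and sums carry no TMM factors for composition, which the CPM of single genes further on do carry. Of the epithelial markers 2 passed the test as higher with GW3965 and 0 as lower. Markers of fibroblasts, blood, adipocytes, endothelium and hepatocytes summed to 8.1 CPM or less each. Few of these had enough counts for a test: 2 of fibroblasts, 2 of blood, 2 of adipocytes, 1 of endothelium and 1 of hepatocytes. None of those tested passed. GW3965 replicate 1 stood apart from the other 3 GW3965 libraries: its score on the second principal component was 48.7 against −19.4 to −0.55 for the other 3 and −17.8 to 4.39 for DMSO. Values without that library are given beside each list count that it moved by over 1.5 times. In bulk RNA a change in the makeup of the cells and a change in RNA per cell cannot be told apart.

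At an adjusted p under 0.01 in edgeR's quasi-likelihood test and a change of at least 2-fold, 97 genes were higher with GW3965 (0.445% of genes tested) and 20 were lower (0.0918%). Without GW3965 replicate 1 the counts were 103 and 18. At a change of at least 1.5-fold 216 genes were higher (0.992%) and 75 were lower (0.344%). At any size of change 406 genes were higher (1.86%) and 189 were lower (0.868%), 595 in all (2.73%), so the additional calls were mostly small. Of the 97 increases, 78 lay between 2- and 4-fold, 15 between 4- and 8-fold and 4 above 8-fold. Of the 20 decreases, 17 lay between 2- and 4-fold and 3 between 4- and 8-fold. The extremes, named after their values were seen, were mostly entries with few reads. Besides ABCA1 and ABCG1, the increases above 8-fold were AP001623.1 (mean 0.03 CPM with DMSO and 1.33 with GW3965) and a 5S_rRNA entry (ENSG00000223262.1, 0.09 and 1.47 CPM), a name that several near-identical entries share. The decreases above 4-fold were an entry with no gene symbol (ENSG00000214797.3, 0.47 and 0.06 CPM), LHFPL3 (0.43 and 0.06 CPM) and TXK, a tyrosine kinase (0.67 and 0.15 CPM). The call for LHFPL3 was lost without GW3965 replicate 4 (adjusted p = 0.0105, log2 −2.51) and that for TXK without any of 6 single libraries (adjusted p = 0.0413 at most, log2 −1.95 without DMSO replicate 3). The median log2 fold change over all genes tested was −0.01, and its median size was 0.12. Every GW3965 library lay above every DMSO library for all 97 genes called higher, and below for all 20 called lower, where 4.94% and 4.86% of all genes tested were separated in this way. Of the genes called higher 88 matched a RefSeq gene, and 82 of those code for protein.

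**Figure D1:**
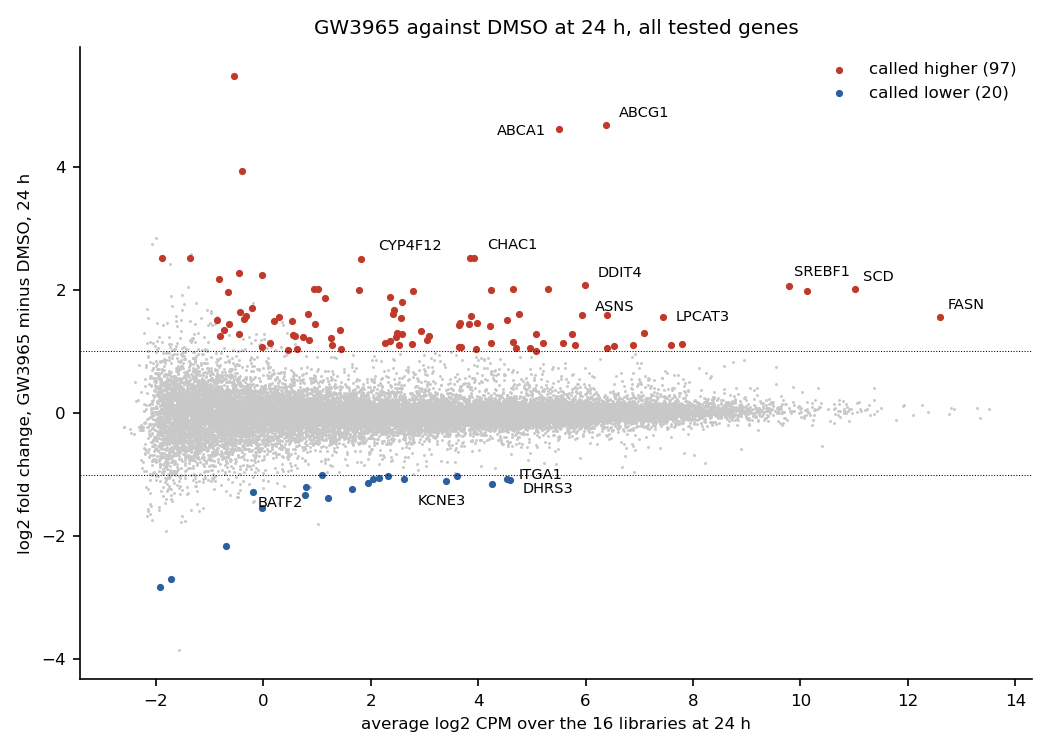
Each point is a tested gene, with its average log2 CPM over the 16 libraries at 24 h on the x axis and its log2 fold change with GW3965 on the y axis. Red points are the 97 genes called higher, blue points the 20 called lower, and dotted lines mark 2-fold. ABCA1 and ABCG1 stand well above the other abundant genes, and few decreases exceed 2-fold.

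The cholesterol exporters ABCG1 and ABCA1 changed most among the genes whose average log2 CPM reached 1. ABCG1, which passes sterols to high-density lipoprotein, read 6.88, 6.64, 6.38 and 7.84 CPM in the DMSO libraries and 158, 186, 188 and 176 CPM in the GW3965 libraries. Its fold change was 25.5 (log2 4.67 ± 0.0826 SE, adjusted p = 3.08e-18). ABCA1, which loads cholesterol and phospholipid onto apolipoprotein A-I, read 4.92, 4.45, 4.80 and 4.33 CPM with DMSO and 106, 118, 123 and 106 CPM with GW3965, a 24.5-fold rise (log2 4.61 ± 0.091 SE, adjusted p = 1.21e-17). The libraries of either gene did not come near to overlapping, and for ABCA1 replicate 1 of GW3965 read the same as replicate 4. The list of 20 LXR targets of sterol efflux and lipoprotein metabolism had 13 members tested. Of these 8 rose (61.5%, against 1.86% of all genes) and 0 fell. The median log2 fold change was 1.10 against −0.01 over all genes. Without GW3965 replicate 1 the list again had 8 members higher, with a median of 1.15. Of the other 7 members, ABCG5, ABCG8, APOC2, APOC4, CETP, LPL and CYP7A1, counts were too low for a test.

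Further members of that list also rose, by less than ABCG1 and ABCA1. LPCAT3, which places polyunsaturated chains in phospholipids, read 82.6, 84.9, 77.0 and 81.5 CPM with DMSO and 237, 247, 244 and 235 CPM with GW3965 (log2 1.56 ± 0.0519 SE, adjusted p = 6.74e-14). MYLIP, a ubiquitin ligase of lipoprotein uptake, read 9.08, 7.88, 8.12 and 7.90 CPM with DMSO and 22.8, 21.8, 22.8 and 23.5 CPM with GW3965 (log2 1.46 ± 0.0782 SE, adjusted p = 1.83e-10). Both genes had tight groups with a wide gap between them. PLTP, the phospholipid transfer protein, rose by log2 1.13, and SMPDL3A, a phosphodiesterase, by log2 0.92, but the call for SMPDL3A was lost when any of 4 single libraries was left out, with an adjusted p of 0.0199 at most (log2 0.81, without DMSO replicate 1). APOE (log2 −0.30), APOC1 (0.32), APOD (−0.53) and TTC39B (0.09) did not pass the test.

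The promoters of 65 of the 97 genes called higher were found in a RefSeq table of windows from 250 bases before to 50 bases after the start of the gene (GRCh38.p14). LXR and its partner bind a direct repeat called DR4, searched on both strands as GGTNA, then 5 bases of any kind, then GGTNA. It was present in 2 of these 65 windows (3.08%) and in 0.656% of all 27305 windows. The 2 windows belong to ABCA1 and to ACSL3, a ligase that activates long-chain fatty acids, and are printed because they hold the repeat next to genes that rose. The ABCA1 window is chr9:104928106-104928405 on the minus strand and the ACSL3 window is chr2:222860786-222861085 on the plus strand. Capitals mark the match, which in both lies on the strand opposite to the gene and so reads as the reverse complement of the searched letters.
ABCA1: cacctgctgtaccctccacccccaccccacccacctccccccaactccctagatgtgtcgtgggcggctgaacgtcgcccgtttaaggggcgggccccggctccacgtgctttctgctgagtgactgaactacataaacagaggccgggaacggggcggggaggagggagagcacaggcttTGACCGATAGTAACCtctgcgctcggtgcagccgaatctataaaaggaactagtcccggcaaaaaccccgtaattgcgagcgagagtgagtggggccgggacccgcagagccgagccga
ACSL3: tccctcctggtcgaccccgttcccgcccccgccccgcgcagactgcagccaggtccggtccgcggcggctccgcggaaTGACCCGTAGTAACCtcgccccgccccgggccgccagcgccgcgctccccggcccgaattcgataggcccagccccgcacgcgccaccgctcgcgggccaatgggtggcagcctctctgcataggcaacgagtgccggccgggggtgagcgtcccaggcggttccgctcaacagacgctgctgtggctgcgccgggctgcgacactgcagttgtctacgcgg
The match began 69 bases before the start of ABCA1 and 172 bases before the start of ACSL3. ACSL3 read 124, 123, 134 and 122 CPM with DMSO and 288, 264, 262 and 265 CPM with GW3965 (log2 1.10 ± 0.056 SE, adjusted p = 8.91e-11). The stricter repeat, AGGTNA, then 4 bases of any kind, then AGGTNA, was in 0 of the 65 windows and in 0.114% of all windows. The sterol element TCACNCCAC was in 2 of the 65 (3.08%), those of CNN3 and the amino acid transporter SLC1A4, and in 1.15% of all windows. Of the 20 genes called lower 12 had a window, and 0 of these held either motif. A match describes the letters of the window and was not tested as a binding site.

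**Figure D2:**
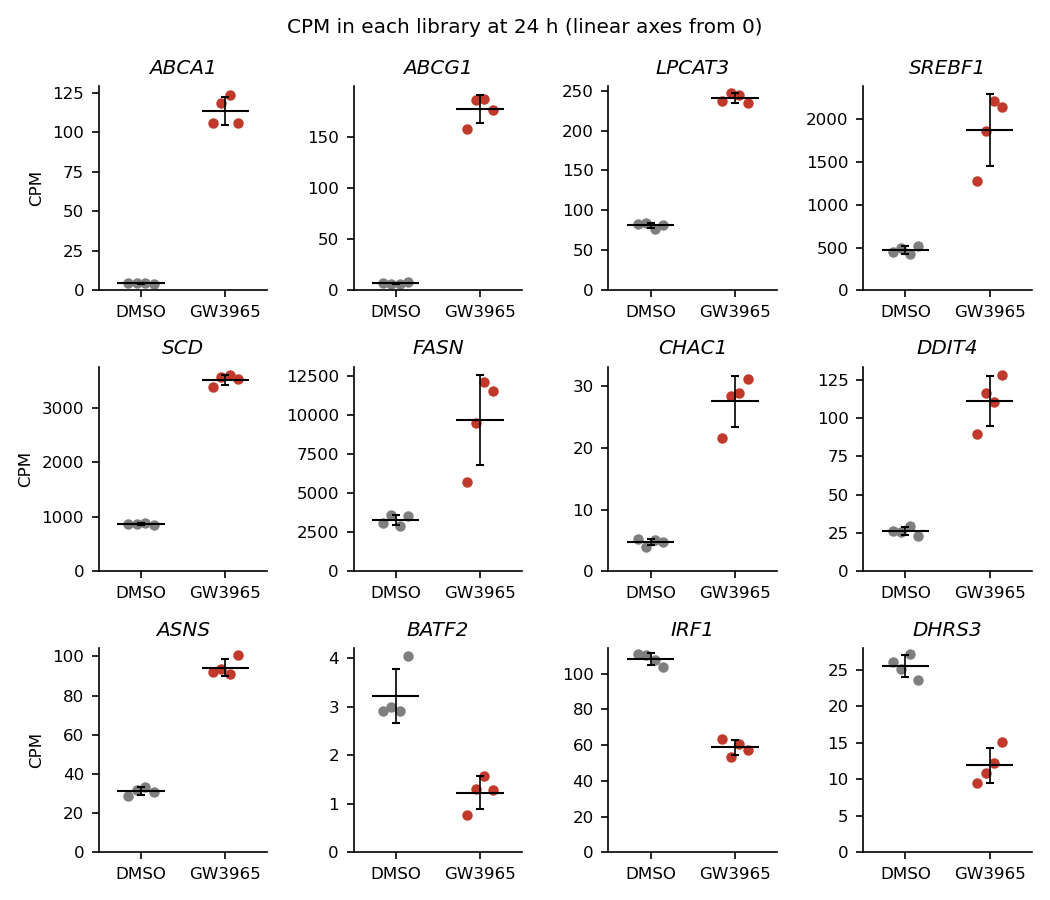
Each panel shows the CPM of a gene in the 4 DMSO (grey) and 4 GW3965 (red) libraries at 24 h, on a linear axis from 0, with replicates 1 to 4 from left to right; horizontal lines are means and bars are SD. The groups are separated in all 12 genes, and GW3965 replicate 1 is the lowest red point for SREBF1, FASN, CHAC1 and DDIT4.

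The genes of fatty acid and triglyceride synthesis formed the next group. This list had 14 of 28 tested members higher, against 1.86% of all genes, and 0 lower. Its median log2 fold change was 0.36. Without GW3965 replicate 1 the list had 16 members higher. SREBF1, the regulator of the pathway, read 446, 498, 421 and 516 CPM with DMSO and 1274, 1858, 2203 and 2132 CPM with GW3965 (log2 1.99 ± 0.13 SE, adjusted p = 6.05e-09). FASN, fatty acid synthase, read 3087, 3573, 2926 and 3553 CPM with DMSO and 5697, 9463, 12085 and 11493 CPM with GW3965 (log2 1.56 ± 0.17 SE, adjusted p = 3.67e-06). In both genes replicate 1 was well under the other GW3965 libraries and still above all DMSO libraries, and without it the log2 fold changes were 2.13 for SREBF1 and 1.74 for FASN.

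SCD, the desaturase that makes oleate, was by contrast even across its group, with 877, 866, 894 and 848 CPM under DMSO and 3373, 3558, 3598 and 3520 CPM under GW3965 (log2 2.01 ± 0.0469 SE, adjusted p = 1.39e-16). The activation steps rose with it: ACSL1, a long-chain acyl-CoA ligase, 3.02-fold, and ACSS2, which makes acetyl-CoA from acetate, by log2 1.16. ACACA, the carboxylase that commits carbon to the pathway, rose by log2 0.87 ± 0.0478 SE (373, 357, 346 and 348 CPM against 635, 664, 668 and 627 CPM), and LPIN1, a phosphatidate phosphatase, by log2 1.06. ELOVL6 and ELOVL1, which lengthen acyl chains, rose by log2 0.63 and 0.32, and ME1, which supplies NADPH, by log2 0.40. The call for ELOVL1 was lost with only the 8 libraries in the fit (adjusted p = 0.0113) and that for ME1 with scaling by library size alone (adjusted p = 0.0142). ACLY, which splits citrate for this pathway, had a log2 fold change of 0.29 that did not pass (adjusted p = 0.0608), and the desaturases FADS1 (0.09) and FADS2 (−0.29) did not pass either.

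SCDP1, an SCD pseudogene, had a log2 fold change of 1.98, and the entry AL139819.1 had 2.06. Whether reads of SCD were counted to either entry was not tested. MIR33B lies inside SREBF1 by RefSeq coordinates (GRCh38.p14, chr17:17813836-17813931 within chr17:17811334-17836986), and its entry read 9.37, 11.3, 9.48 and 11.8 CPM with DMSO and 28.2, 40.6, 49.2 and 52.1 CPM with GW3965 (log2 2.02 ± 0.15 SE, adjusted p = 1.57e-08). In these mRNA libraries the entry cannot be told apart from fragments of the transcript that hosts the hairpin, and the mature miRNA was not measured. The miR-33 family is known for targeting ABCA1, so the mature forms are printed with the seed (bases 2 to 8) in capitals.
hsa-miR-33b-5p: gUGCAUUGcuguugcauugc
hsa-miR-33b-3p: cAGUGCCUcggcagugcagccc
As in SREBF1, replicate 1 was the lowest of the GW3965 libraries for MIR33B.

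Cholesterol synthesis and uptake moved less, with 6 of 33 tested members higher (18.2%, against 1.86% of all genes) and 0 lower. The median log2 fold change was 0.11, and 9 members were higher without GW3965 replicate 1. LSS, lanosterol synthase, read 231, 232, 199 and 235 CPM with DMSO and 288, 369.8, 412 and 421 CPM with GW3965 (log2 0.73 ± 0.0959 SE, adjusted p = 4.27e-05), with GW3965 replicate 1 the lowest of its group and above all DMSO libraries. INSIG1 (which retains the SREBP complex in the endoplasmic reticulum, log2 0.57), FDFT1 (squalene synthase, 0.40) and NPC1 (lysosomal cholesterol export, 0.39) rose as well. DHCR7, the last step of the pathway, had log2 0.30, a call that leaving out any of 7 single libraries removed (adjusted p = 0.043 at most, log2 0.26 without GW3965 replicate 3). SQLE, squalene epoxidase, did not pass (log2 −0.14, adjusted p = 0.276).

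Of 31 tested members of fatty acid oxidation and ketogenesis 7 were higher (22.6%, against 1.86% of all genes), 0 were lower and 24 did not pass. The median log2 fold change of the list was 0.11. CPT1A, which carries acyl groups into mitochondria, rose by log2 0.80 ± 0.0577 SE, SLC25A20 and CPT2, its partners in that transport, by 0.75 and 0.61, and the oxidation enzymes ACAA2 and ACADVL by 0.73 and 0.51. ETFA, the electron acceptor of the first step, had log2 0.23, and its call was lost without any of 7 single libraries (adjusted p = 0.0305 at most, log2 0.22 without DMSO replicate 4). PDK4, the kinase that turns off pyruvate dehydrogenase, read 4.23, 4.83, 4.85 and 4.61 CPM against 12.2, 12.3, 13.3 and 13.4 CPM (log2 1.47 ± 0.10 SE, adjusted p = 8.88e-09). The groups of PDK4 were separate by more than their whole spread. Among 22 lipid droplet proteins and lipases 3 were higher (13.6%, against 1.86% of all genes) and 0 lower, with a median of 0.05. The 3 were PLIN2, which coats droplets (log2 1.58 ± 0.10 SE), PLIN4 (1.14 ± 0.15 SE) and the lipase inhibitor G0S2 (1.14 ± 0.25 SE). The call for G0S2 was lost without any of 6 single libraries (adjusted p = 0.0351 at most, log2 0.93 without DMSO replicate 1). FABP1, the fatty acid carrier of enterocytes and liver, rose by log2 1.80 ± 0.30 SE from a mean of 0.93 to 3.20 CPM.

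**Figure D3:**
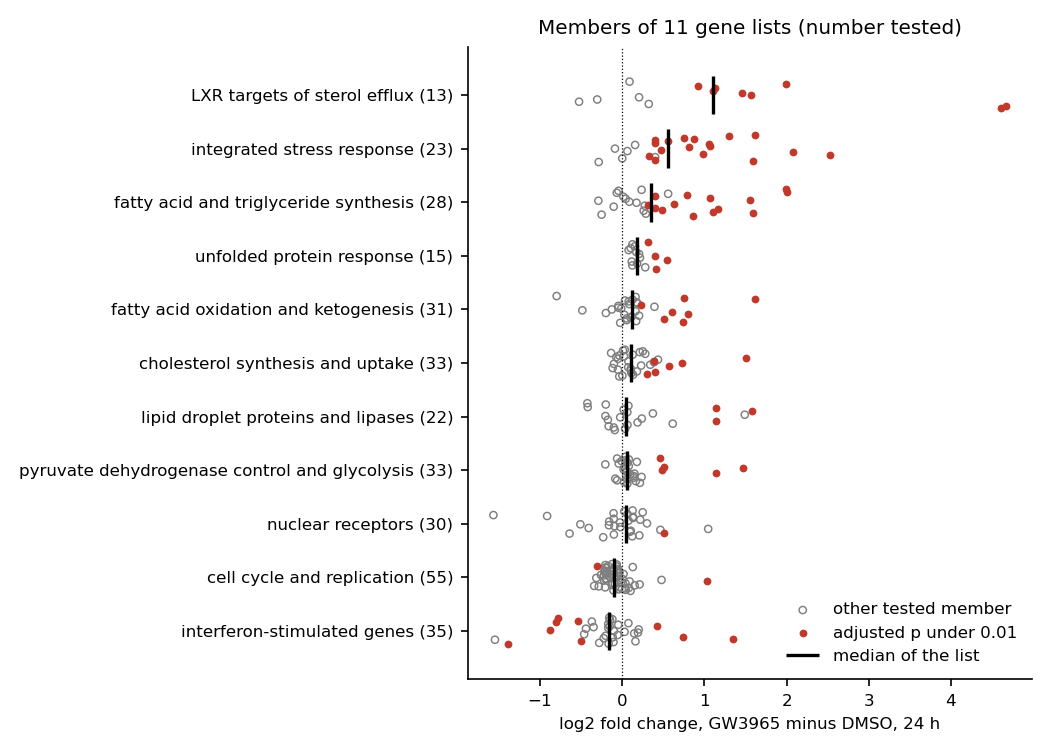
Points are the tested members of 11 gene lists, placed by log2 fold change with GW3965 at 24 h on the x axis; filled red points had an adjusted p under 0.01, bars are list medians and the dotted line is the median of all genes tested. The LXR targets (median 1.10) and the integrated stress response (0.56) lie furthest right, and the interferon-stimulated genes (−0.16) furthest left.

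The integrated stress response, the programme through which ATF4 raises amino acid supply when translation initiation is restrained, was the list with the largest share of members called. Of 23 tested members 17 were higher (73.9%, against 1.86% of all genes) and 0 lower, with a median log2 fold change of 0.56. Without GW3965 replicate 1 the count was 18 and the median 0.57. CHAC1, which degrades glutathione, read 5.21, 3.97, 5.04 and 4.80 CPM with DMSO and 21.5, 28.4, 28.9 and 31.2 CPM with GW3965 (log2 2.53 ± 0.11 SE, adjusted p = 9.98e-12). DDIT4, an inhibitor of mTORC1, read 26.6, 25.5, 29.7 and 23.3 CPM with DMSO and 89.6, 116, 110.4 and 128 CPM with GW3965 (log2 2.08 ± 0.12 SE, adjusted p = 3.51e-10). For both genes replicate 1 was the lowest GW3965 library and lay far above DMSO.

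ASNS, asparagine synthetase, read 29.0, 31.8, 33.4 and 31.0 CPM with DMSO and 91.9, 93.5, 91.1 and 101 CPM with GW3965 (log2 1.59 ± 0.0627 SE, adjusted p = 1.23e-12). TRIB3, a pseudokinase that restrains ATF4 and AKT, went from a mean of 88.3 to 217 CPM (log2 1.30 ± 0.0862 SE, adjusted p = 4.75e-09). The serine synthesis enzymes PSAT1 and PHGDH rose by log2 1.06 and 0.81, and the amino acid transporter subunits SLC7A11, SLC7A5 and SLC3A2 by 0.88, 0.75 and 0.56. ATF4 itself rose by log2 0.40 ± 0.0556 SE and the transcription factor DDIT3 (CHOP) by 0.99 ± 0.10 SE. GDF15 (0.06), ATF5 (0.00), NUPR1 (−0.09) and ALDH1L2 (−0.29) did not pass. The solute carriers as a whole had 18 of 213 tested members higher (8.45%, against 1.86% of all genes) and 5 lower (2.35%, against 0.868%). Their median of 0.02 was −0.02 with scaling by library size alone. The count lower was 3 without GW3965 replicate 2 or 3 or DMSO replicate 2, and 2 without DMSO replicate 3. SLC6A9, a glycine transporter outside the stress list, read 1.20, 1.05, 1.44 and 1.12 CPM with DMSO and 3.85, 6.33, 7.99 and 9.19 CPM with GW3965 (log2 2.50 ± 0.24 SE, adjusted p = 6.22e-07), with replicate 1 lowest of its group. Of 15 members of the unfolded protein response 4 were higher (26.7%, against 1.86% of all genes) and 0 lower, all by small amounts. HERPUD1 had log2 0.54 and the chaperone HSPA5 0.40.

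Outside these lists, CYP4F12, CYP4F3 and CYP4F11 belong to a family of fatty acid hydroxylases, of which CYP4F12 read 4.21, 3.24, 4.66 and 4.74 CPM with DMSO and 25.3, 23.0, 24.6 and 24.1 CPM with GW3965 (log2 2.52 ± 0.11 SE, adjusted p = 5.44e-12). CYP4F3 had log2 2.00 and CYP4F11 log2 1.56. The family members are similar in sequence, all 3 lie on chromosome 19, and how reads were split between them is not given in the sources used here. POU3F1, a transcription factor, rose by log2 1.68 ± 0.14 SE, ADM2, a hormone of the calcitonin family, by 1.88 ± 0.19 SE, VLDLR, a lipoprotein receptor, by 1.62 ± 0.10 SE, and LRRC31 and PDLIM4 by 2.01 and 1.88. VEGFA, the vascular growth factor, rose by log2 1.12 ± 0.0648 SE from a mean of 148 to 322 CPM, and CDKN1A, the cell cycle inhibitor p21, by log2 1.03 ± 0.0785 SE. CDKN1A was 1 of 2 members called among 55 of cell cycle and replication (3.64%, against 2.73% of all genes), the other being SKP2, a ubiquitin ligase subunit for cell cycle inhibitors (log2 −0.31, adjusted p = 0.000311). That list had a median of −0.10. Without GW3965 replicate 1 it had 3 members higher and 2 lower, without DMSO replicate 3 it had 2 lower, and with scaling by library size alone it had 5 lower. KRT20, a keratin, and CEACAM5, a surface protein, are markers of mature colonocytes and rose by log2 0.83 and 0.71. They were among 3 of 20 tested members of enterocyte maturation that were higher, against 1.86% of all genes. None was lower and 17 did not pass. The list had a median of 0.10 and a lowest log2 fold change of −0.887, and 14 members lay above 0. The count lower was 1 without GW3965 replicate 1 or 2 or DMSO replicate 4. With DESeq2 4 members were higher and 2 lower.

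Of the receptors themselves, NR1H3 rose, while NR1H2 and the partner gene RXRA did not pass. NR1H3 read 73.7, 75.1, 67.0 and 71.7 CPM with DMSO and 139, 147, 165 and 166 CPM with GW3965 (log2 1.10 ± 0.0799 SE, adjusted p = 1.55e-08). NR1H2 had a log2 fold change of 0.10 (adjusted p = 0.433) and RXRA 0.06 (adjusted p = 0.886), and both had overlapping groups. In the list of 30 tested nuclear receptors, which holds NR1H2 and RXRA but not NR1H3, only NR1D1, a clock repressor, was called (log2 0.51). That is 3.33% of the list, against 2.73% of all genes. In the same list 3 were called higher without GW3965 replicate 1 and 1 was called lower without GW3965 replicate 4.

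The decreases were fewer and smaller. Interferon-stimulated genes had 6 of 35 tested members lower (17.1%, against 0.868% of all genes) and 3 higher (8.57%, against 1.86%). The median log2 fold change was −0.16, and 9 of 35 lay above 0. IRF1, the transcription factor of that response, read 111, 110.2, 107 and 104 CPM with DMSO and 63.6, 53.5, 60.6 and 57.4 CPM with GW3965 (log2 −0.88 ± 0.076 SE, adjusted p = 1.98e-07). PARP14, an ADP-ribosyltransferase, went from a mean of 46.1 to 26.4 CPM (log2 −0.80 ± 0.0614 SE, adjusted p = 3.19e-08). BATF2, a further transcription factor, read 2.91, 2.99, 2.92 and 4.05 CPM against 0.775, 1.31, 1.57 and 1.28 CPM (log2 −1.39 ± 0.22 SE, adjusted p = 0.000326). The peptide transporter TAP1 (log2 −0.78), SAMD9 (−0.54) and DTX3L (−0.50) made up the 6. The 3 members called higher were IFI35 (log2 0.75), OAS1 (0.43) and HERC5 (1.35). The call for OAS1 was lost without any of 6 single libraries (adjusted p = 0.0369 at most, log2 0.37 without DMSO replicate 4) and that for HERC5 without any of the 8 (adjusted p = 0.037 at most, log2 1.27 without DMSO replicate 1), and both were lost with scaling by library size alone.

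Retinoid metabolism changed in both directions, with 3 of 13 tested members higher (23.1%, against 1.86% of all genes) and 2 lower (15.4%, against 0.868%). DHRS3, which reduces retinaldehyde back to retinol, read 26.1, 25.1, 27.1 and 23.6 CPM with DMSO and 9.52, 10.9, 12.2 and 15.2 CPM with GW3965 (log2 −1.09 ± 0.11 SE, adjusted p = 1.91e-06). ALDH1A3, which makes retinoic acid, fell by 0.99 on the log2 scale, whereas ALDH1A1, of the same activity, rose by log2 0.76, the retinol dehydrogenase DHRS9 by 1.61 and the retinol carrier RBP4 by 0.85. Of 14 tested Wnt targets and antagonists 2 were lower (14.3%, against 0.868% of all genes) and 0 higher, with a median of −0.0645 that was 0.00823 without GW3965 replicate 1. LGR5, the R-spondin receptor that marks intestinal stem cells, read 7.46, 6.67, 5.83 and 7.73 CPM with DMSO and 2.91, 3.22, 3.21 and 3.84 CPM with GW3965 (log2 −1.07 ± 0.13 SE, adjusted p = 1.3e-05), and EPHB3, a receptor of crypt cell position, had log2 −0.72. KCNE3, a potassium channel subunit of colonic secretion, fell by 1.16 on the log2 scale, ITGA1, an integrin for collagen, by 1.07, and NOX1, the superoxide-forming oxidase of colon, by 1.03. NOX1 is the only member lower among 27 tested of the antioxidant list, and forms oxidants where the others remove them. VNN1, a pantetheinase, and PTPRO, a receptor phosphatase, fell by 1.14 and 1.23. CLIC5, a chloride channel protein, fell by 1.05, and RNF207 by 1.10.

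Over all genes tested, 1.86% were higher and 0.868% lower, and the counts of the remaining lists are read against these shares. The following lists had no member lower: xenobiotic metabolism with 3 of 15 higher, pyruvate dehydrogenase control and glycolysis with 5 of 33 (15.2%), cytochromes P450 with 4 of 30 (13.3%) and nuclear receptor cofactors with 1 of 15 (6.67%). ABC transporters had 5 of 31 higher (16.1%), a count that includes ABCA1 and ABCG1, and 1 lower, which was 0 without GW3965 replicate 2. Apolipoproteins and lipoprotein assembly had 2 higher and 1 lower of 12. Fatty acid binding and uptake had 1 higher and 0 lower of 16, and 3 higher without GW3965 replicate 1. Phospholipid synthesis and remodelling had 1 higher and 1 lower of 27. Its count higher was 3 without GW3965 replicate 1, and 0 with scaling by library size alone or without DMSO replicate 1, 2 or 4. AP1 subunits and immediate early genes had 3 higher and 1 lower of 19, with 7 higher without GW3965 replicate 1 and 0 lower without GW3965 replicate 4 or DMSO replicate 1 or 2. NF-κB targets and chemokines had 1 higher and 2 lower of 22, with 3 higher and 3 lower without GW3965 replicate 1 and 2 higher without DMSO replicate 4. BMP and TGF-β response had 1 higher and 2 lower of 16. Without GW3965 replicate 1 these were 2 and 3, and the count higher was 0 when any 1 of 6 other libraries was left out (all but DMSO replicate 3). EGFR ligands and MAPK feedback had 2 higher and 1 lower of 24, with 1 higher without GW3965 replicate 2 or DMSO replicate 2, 3 or 4. Goblet and secretory genes had 0 higher and 2 lower of 26. The count lower was 1 when any 1 of 6 libraries was left out (all but GW3965 replicate 1 and DMSO replicate 4), and 1 member was higher without GW3965 replicate 3 or DMSO replicate 3. The antioxidant list had 2 of 27 higher beside NOX1, which was lower. Just inside the 2-fold limit lay CAPS2 (log2 −1.01), S100A14 (1.01) and LOXL1 (−1.02), and just outside it DDIT3 (0.99), ALDH1A3 (−0.99) and SH2B3 (0.98).

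The libraries at 48 h show which of these changes were still present a day later, in separate DMSO and GW3965 samples. The counts of each hour were deposited separately, so an effect of time cannot be told apart from a difference in handling. The interaction removes such a difference only where it is additive on the log scale. Of the 97 genes called higher at 24 h, 60 were called higher at 48 h, where 3.24% of all genes were, and 18 were called lower, where 2.54% were. The response differed between the hours in 53 of the 97 (interaction at adjusted p under 0.01, which 21.6% of all genes passed). It was more positive at 48 h in 20 and more negative in 33, among them genes whose sign turned. These are positive and negative interactions, which 9.96% and 11.7% of all genes had at that threshold, whichever way they moved at 24 h. Of the 20 called lower at 24 h, 7 were called lower again and 0 higher. The response was more positive at 48 h in all 8 that differed between the hours.

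The sterol and lipogenic genes kept their direction. All 8 LXR targets that rose at 24 h were higher at 48 h at adjusted p under 0.01, as were 12 of the 14 genes of fatty acid and triglyceride synthesis, where 16.1% of all genes were higher. The ABCA1 response was larger at 48 h (log2 5.77, interaction 1.16, adjusted p = 7.65e-07), while that of ABCG1 was smaller (log2 3.38, interaction −1.29, adjusted p = 1.3e-07). The levels of these exporters with DMSO moved in opposite ways, ABCG1 from a mean of 6.93 to 23.4 CPM and ABCA1 from 4.62 to 2.41 CPM, each hour being scaled on its own. The response of FASN grew from log2 1.56 to 3.17 (interaction 1.61, adjusted p = 5.36e-06) while its mean with GW3965 went from 9685 to 8467 CPM and its mean with DMSO from 3285 to 942 CPM. SCD (interaction 0.56), LPCAT3 (0.62), NR1H3 (0.55), ACSS2 (1.20), INSIG1 (1.14) and LSS (1.06) also responded more at 48 h, and SREBF1 did not differ (0.17, adjusted p = 0.49).

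The integrated stress response genes changed sign between the hours. Of the 17 members higher at 24 h all 17 had a negative log2 fold change at 48 h, 16 passed the test as lower, where 17.5% of all genes did, and the interaction was negative in all 17, as it was in 11.7% of all genes. CHAC1 went from log2 2.53 to −1.37 (interaction −3.89, adjusted p = 9.81e-19), DDIT4 from 2.08 to −1.05, ASNS from 1.59 to −1.02, TRIB3 from 1.30 to −1.19 and SESN2, a stress-induced inhibitor of mTORC1, from 1.06 to −1.70. The levels of CHAC1 changed more in the controls than in the treated cells. With DMSO it had a mean of 4.75 CPM at 24 h and 171 ± 11.3 CPM (SD, n = 4) at 48 h, whereas with GW3965 it had 27.5 and 66.3 ± 10.5 CPM (SD, n = 4). In all 17 genes the mean with DMSO was higher at 48 h than at 24 h, by a median of 2.88 on the log2 scale, against 0.02 over 21427 genes with a level at both hours. Time and handling cannot be told apart in these levels.

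The 18 genes called higher at 24 h and lower at 48 h include 6 of that list, and all 18 had a higher mean with DMSO at 48 h. They were picked with the same DMSO means, so the choice itself favours such a rise. The mean with DMSO was also higher at 48 h in 66 of the 97 genes called higher and in 10975 of 21427 genes. Among the 18, those with the largest negative interaction were INHBE, a stress-induced activin subunit (−5.63), G0S2 (−4.73), PRSS1, trypsinogen (−4.66), ATF3, a stress-induced transcription factor (−4.24), and HBEGF, an EGFR ligand (−4.002). ATF3 read 3.16, 3.78, 3.76 and 3.15 CPM with DMSO and 7.28, 8.63, 6.47 and 7.33 CPM with GW3965 at 24 h, and means of 139 and 15.8 CPM at 48 h (log2 1.10 and −3.14). HBEGF likewise went from log2 1.12 to −2.88. The 24 h calls for INHBE and PRSS1 rest on few reads, with means of 0.08 and 0.24 CPM with DMSO, and were lost without any of 6 libraries (adjusted p = 0.0364 at most, log2 2.27 without GW3965 replicate 4) and without DMSO replicate 2 (adjusted p = 0.012, log2 2.09) respectively. VEGFA (log2 −0.94 at 48 h, interaction −2.06) and CDKN1A (−0.61, interaction −1.64) followed the same course.

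**Figure D4:**
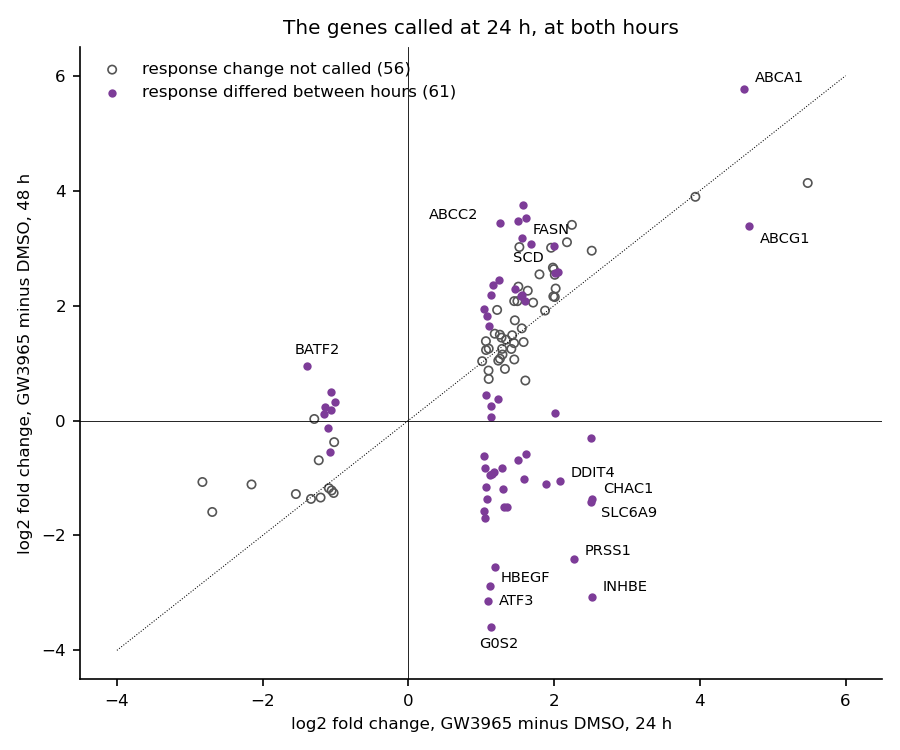
Points are the 117 genes called at 24 h, with the log2 fold change at 24 h on the x axis and at 48 h on the y axis; filled points are the 61 whose response differed between the hours, and the dotted line marks equal responses. ABCA1 lies above the line and ABCG1 below it, while CHAC1, DDIT4, SLC6A9, ATF3, HBEGF, INHBE, PRSS1 and G0S2 lie below 0 at 48 h.

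In the other direction, the genes with the most positive interaction included BATF2 (2.33), ABCC2, an exporter of conjugated compounds (2.17), FGFBP1, a carrier of fibroblast growth factors (2.17), and RNASE1, a secreted ribonuclease (1.97). BATF2 went from log2 −1.39 to 0.94, so that its sign turned. The 24 h calls of ABCC2 and RNASE1 were lost without any of 6 and any of 5 single libraries (adjusted p = 0.0251 at most, log2 1.10 without DMSO replicate 3 for ABCC2, and 0.0246, log2 1.35 without DMSO replicate 1 for RNASE1). KCNE3 (log2 0.11 at 48 h, interaction 1.27) and VNN1 (0.23, interaction 1.37) no longer showed the decrease.

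T0901317 was the second LXR agonist at 24 h, at the same dose and against the same 4 DMSO libraries, so the fold changes of the agents share those controls and are given side by side. The direct contrast of GW3965 with T0901317 called 5 genes higher with GW3965 (0.023%) and 16 lower (0.0735%) at 2-fold. At adjusted p under 0.01 with any fold it called 42 higher and 130 lower of 21781 tested. That contrast passed in 12 of the 97 genes called higher with GW3965 against DMSO. Their median log2 fold changes were 1.45 with GW3965 and 1.1 with T0901317. It passed in 8 of the 20 called lower, with medians of −1.15 and −0.386. Both groups were picked by their GW3965 values, which favours larger sizes with GW3965. ABCA1 had log2 4.61 with GW3965 and 3.71 with T0901317, a difference of 0.91 ± 0.0739 SE (adjusted p = 5.22e-07), while ABCG1 had 4.67 and 4.34 (difference 0.33, adjusted p = 0.0114). SCD had 2.01 and 1.72 (difference 0.29, adjusted p = 0.00127) and SREBF1 1.99 and 1.76 (0.23, adjusted p = 0.524). CHAC1 had 2.53 and 2.40, and ASNS 1.59 and 1.61, with differences that did not pass (adjusted p = 0.707 and 0.938).

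SLC38A4, PDK4 and CPT1A were higher with GW3965 than with T0901317. SLC38A4, an amino acid transporter, read 1.08, 1.05, 1.04 and 1.37 CPM with DMSO and 4.18, 4.91, 4.43 and 4.54 CPM with GW3965, a log2 fold change of 1.99, against −0.02 with T0901317 (difference 2.02, adjusted p = 1.81e-09) and 5.92 with rosiglitazone. PDK4 had 1.47, 0.26 and 2.58 in that order (GW3965 minus T0901317 1.21, adjusted p = 7.54e-07) and CPT1A 0.80, 0.14 and 0.50 (0.66, adjusted p = 1.21e-06). For the partners of CPT1A in transport the difference between the agonists did not pass, with 0.17 for CPT2 (adjusted p = 0.289) and 0.49 for SLC25A20 (adjusted p = 0.0509). These 3 genes were higher with rosiglitazone too, the agonist of the receptor PPARγ.

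Genes lower with GW3965 than with T0901317 included DHRS3, with log2 −1.09 and 0.36 against DMSO (difference −1.45, adjusted p = 2.88e-07), FGF19, a bile acid hormone of the intestine, with −0.51 and 0.93 (−1.44, adjusted p = 4.56e-07), and NR0B2, a repressor of bile acid synthesis, with −0.64 and 0.65 (−1.29, adjusted p = 0.00076). FAM131B (−1.20) and TNFSF10, the death ligand TRAIL (−1.19), completed the 5 largest by the naming rule, and ATOH8, a transcription factor, was also higher with GW3965 than with T0901317 (1.15). With GW3965 against DMSO, FGF19 (adjusted p = 0.0117), NR0B2 (0.0754), ATOH8 (0.116) and TNFSF10 did not pass the test. The rise of FGF19 with T0901317 against DMSO did pass (adjusted p = 3.23e-05). IRF1 had −0.88 with GW3965 and 0.22 with T0901317 (difference −1.10, adjusted p = 1.36e-07) and ALDH1A3 −0.99 and 0.10 (−1.09, adjusted p = 0.000142). The count of 21 genes differing between the agonists was 11 when only their 8 libraries entered the fit.

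**Figure D5:**
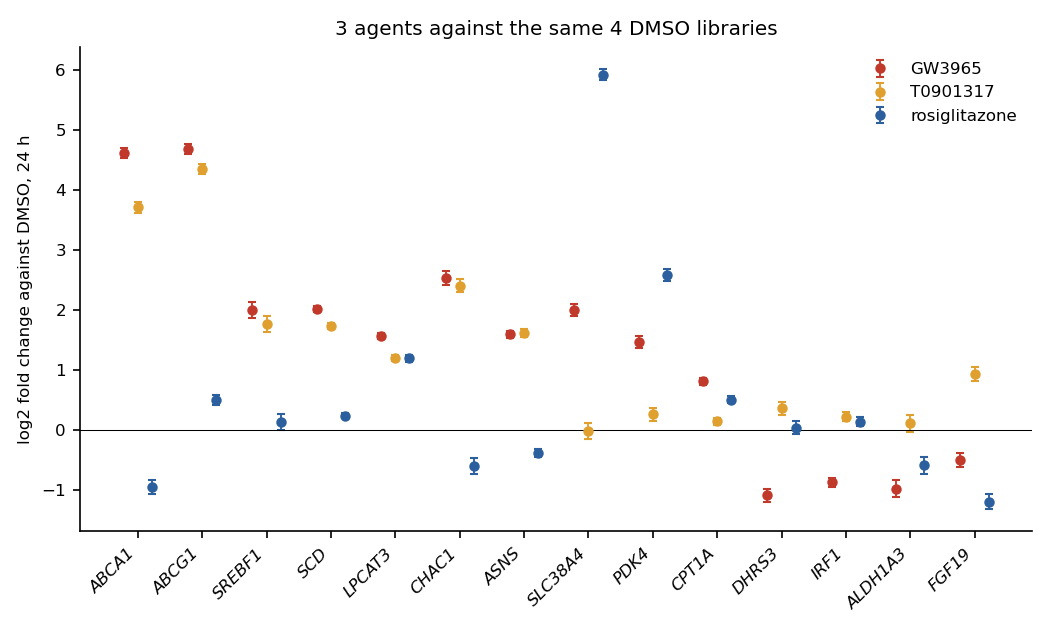
Points are log2 fold changes against DMSO at 24 h for GW3965 (red), T0901317 (orange) and rosiglitazone (blue), with bars of 1 SE, for 14 genes on the x axis. The 3 agents share the same 4 DMSO libraries. The LXR agonists lie close together for ABCG1, SREBF1, CHAC1 and ASNS and apart for SLC38A4, PDK4, DHRS3, IRF1, ALDH1A3 and FGF19.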

How the data were processed

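RNA was measured in HT29 cells by paired-end sequencing of mRNA libraries fragmented with Nextera transposases. The authors deposited 1 table of whole-number read counts per gene for each hour, with a column per library. The submitters' processing notes name TopHat, Cufflinks and hg19. The counting program is not given in the sources used here, nor is its strand setting, so reads of overlapping or antisense genes cannot be told apart. The 8 libraries compared held 30834003 to 51332656 counts each.

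Counts were analysed in edgeR 4.0.16 (R 4.3.3) with filterByExpr, TMM scaling and the quasi-likelihood test. All 16 libraries at 24 h shared 1 estimate of the spread, group was the only term, and p-values were adjusted by Benjamini-Hochberg over the 21781 genes tested. A gene was called where the adjusted p was under 0.01 and the level changed at least 2-fold, and lists were counted at an adjusted p under 0.01 with any fold. The interaction of hour and treatment was fitted over all 32 RNA libraries, and GW3965 was contrasted with T0901317 directly. CPM were scaled within each hour separately. On simulated counts with 200 changed genes the GW3965 comparison recovered 200 with 0 false calls. The planted changes all exceeded 2-fold, in genes of at least 1 CPM and with the same spread set for every gene. Recovery of changes near 2-fold or at low counts was therefore not tested.

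The members and lists were chosen with earlier results of these data known, so lists have no test of their own. Named genes were list members, receptors, the 20 largest increases and up to 15 largest decreases whose average log2 CPM reached 1, with groups that did not overlap, the 10 largest gains in CPM, the 5 largest differences each way between hours and between agonists, and the genes nearest the 2-fold limit, with 1 clone entry left out. Some genes are not reported here. Alternatives were DESeq2 1.42.0, other scalings and filters, fewer libraries, a replicate block, a test against 1.5-fold and each library left out. Promoters and miRNAs came from RefSeq tables (GRCh38.p14). Receptor peaks, which are in hg19, were not used here.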

Additional observations from a re-analysis of the deposited data

Results flagged for a closer look

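In 21 of 252 groups of 4 libraries 1 library lay far from the other 3 by Dixon's test, where chance gives about 1 in 20 (12.6). In GW3965 replicate 1 this held for ACSL3 (288 CPM), EPHB3 (37.5 CPM), FAM131B (3.9 CPM) and VEGFA (283 CPM). In DMSO replicate 3 this held for ALDH1A1 (337 CPM), ITGA1 (46.8 CPM), LSS (199 CPM), RNF207 (10.3 CPM), SAMD9 (29 CPM) and SLC3A2 (167 CPM). In GW3965 replicate 4 this held for ATF4 (244 CPM), INHBE (0.639 CPM), NR0B2 (3.36 CPM) and TNFSF10 (2.24 CPM). In DMSO replicate 4 this held for BATF2 (4.05 CPM), CYP4F3 (0.949 CPM) and SLC38A4 (1.37 CPM). In DMSO replicate 1 this held for FADS2 (2.06 CPM) and HERC5 (0.245 CPM). In DMSO replicate 2 this held for LOXL1 (18.7 CPM). In GW3965 replicate 2 this held for TAP1 (4.75 CPM). 

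The response to GW3965 differed between 24 and 48 h in the genes below at an adjusted p under 0.01 in edgeR's interaction test, given as the log2 fold change at 48 h minus that at 24 h. It was more negative at 48 h for ABCG1 (−1.29), CHAC1 (−3.89), DDIT4 (−3.13), ASNS (−2.61), TRIB3 (−2.48), SESN2 (−2.75), ATF3 (−4.24), HBEGF (−4.002), G0S2 (−4.73), INHBE (−5.63), PRSS1 (−4.66), SLC6A9 (−3.92), VEGFA (−2.06) and CDKN1A (−1.64). It was more positive for ABCA1 (1.16), LPCAT3 (0.62), NR1H3 (0.55), SCD (0.56), FASN (1.61), ACSS2 (1.20), LSS (1.06), INSIG1 (1.14), BATF2 (2.33), ABCC2 (2.17), FGFBP1 (2.17), RNASE1 (1.97), SLC38A4 (1.04), VNN1 (1.37) and KCNE3 (1.27).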

How the results depend on the processing

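Among named genes that passed the test in the main run or the alternative, none changed direction under any alternative run. List medians near 0 did: with library size scaling those of solute carriers (0.0233 to −0.0211), retinoid metabolism (0.0335 to −0.0176), apolipoproteins (0.00519 to −0.0468), nuclear receptors (0.0448 to −0.00754), phospholipid synthesis (0.00118 to −0.0493) and BMP response (0.0436 to −0.00335), with the replicate block those of apolipoproteins (−0.0121) and phospholipid synthesis (−0.00296), and without GW3965 replicate 1 that of Wnt targets (−0.0645 to 0.00823). The 97 genes called higher were 113 with DESeq2, 96 with RLE scaling, 90 with library size scaling, 104 without a filter, 88 at a minimum of 1 CPM, 94 with only the 8 libraries and 70 when tested against 1.5-fold. The 20 called lower were 32 with DESeq2 and 6 when tested against 1.5-fold, and 30 with library size scaling, which moved the median of all genes from −0.01 to −0.05. The 21 genes that differed between GW3965 and T0901317 were 11 with only the libraries compared, where the cause was not tested. Leaving out 1 library at a time gave 83 to 103 genes higher and 14 to 24 lower, 190 to 261 higher and 61 to 77 lower at 1.5-fold, 4307 to 4966 whose response differed between the hours and 16 to 26 that differed between the agonists. Same-numbered DMSO and GW3965 libraries deviated from their group means with correlations of −0.103 to 0.0652, and differently numbered ones with −0.117 to 0.0864. These values show no pairing by replicate number but are too few to exclude a shared culture or batch. With the replicate block 89 genes were higher, 20 lower, 4817 differed between the hours and 16 between the agonists. For named genes a call here means an adjusted p under 0.01 with any fold. Of those calls 6 were lost with the block and 60 when tested against 1.5-fold. Genes that changed by less than 1.5-fold could not pass that last test. Of 16 called named genes with a mean under 1 CPM with DMSO, 8 lost their call without some single library and 8 kept it without each, against 4 lost of 92 at higher levels. The alternatives on receptor sites near called genes were not run.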
